A study of Mus musculus with 3 samples.

Results

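The chaperones and folding factors of the endoplasmic reticulum (ER) were followed in mouse spleens that bore islet grafts. The members were 10 genes of the unfolded protein response: Hspa5, Hsp90b1, Pdia4, Pdia6, Dnajb9, Dnajc3, Sdf2l1, Creld2, Manf and Herpud1. Every non-control probe of the array that carries one of these names was taken, which gave 12 of 55681 probes and 10 of 34797 gene names. Pdia6 and Dnajb9 had 2 probes each. The single Creld2 probe was spotted 10 times on each array, and every other probe once.

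Islets were transplanted into C57BL/6J recipients, 25 of them into the spleen and 100 beneath the kidney capsule. Recipients and donors were male and syngeneic, and the recipients had been made diabetic with streptozotocin, a toxin of beta cells. Spleen RNA was taken just after transplantation (day 0, Sample 1), on day 2 (Sample 2), and on day 139 (Sample 3). The day 139 mice had lost the kidney that held the other graft by nephrectomy on day 100. Each day was measured on 1 Agilent one-colour array of 60-base probes, and the number of mice behind each RNA is not given in the sources used here. The study's methods give an age of 8 to 16 weeks at analysis for its mice in general and none for each sample. Since 139 days is longer than 16 weeks, this range cannot hold for Sample 3. By the study's methods and the treatment protocol all samples share the diabetes and both grafts, but the sample characteristics name the kidney graft for Sample 3 alone. If Samples 1 and 2 lacked it, that graft could not be told apart from day 139. No spleen without islets was analysed here, and neither the nephrectomy nor the age of the mice can be told apart from the time elapsed. With 1 array a day there is no replicate, no p-value, and no way to separate a difference between days from a difference between mice or RNA preparations.

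The ER lumen is where secreted and membrane proteins fold, form disulfide bonds and are checked before they leave for the Golgi apparatus. When unfolded protein accumulates there, the sensors IRE1, PERK and ATF6 start the unfolded protein response, which raises the transcription of chaperones, disulfide isomerases and degradation factors. In the spleen, plasma cells carry the largest secretory load, since they release immunoglobulin, and their differentiation depends on XBP1, the transcription factor downstream of IRE1. The transplanted islets add endocrine cells that also secrete protein in bulk.

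Many of these genes carry the ER stress response element, to which ATF6 binds together with NF-Y. It reads CCAAT, then 9 bases of any kind, then CCACG, and was searched on both strands. The sequences below show it, because 5 of the members held it and few other genes did. RefSeq promoter windows (GRCm38.p6), from 250 bases before to 50 bases after the start site, were at hand for 9 of the 10 members, with none for Manf. The element stood in the windows of 5 of these 9 genes, Hspa5, Hsp90b1, Pdia6, Dnajc3 and Creld2, against 39 of all 32851 windows (0.119%). Herpud1 held a second form, ATTGG, then 1 base, then CCACG, which was found in 12 windows (0.0365%). The CCAAT and CCACG parts of each element, or their reverse complements, are in capitals, and each sequence is written 5′ to 3′ on the strand of its gene.
Hspa5: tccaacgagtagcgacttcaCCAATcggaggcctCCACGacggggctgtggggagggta
Dnajc3: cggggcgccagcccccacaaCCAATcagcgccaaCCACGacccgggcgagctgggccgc
Pdia6: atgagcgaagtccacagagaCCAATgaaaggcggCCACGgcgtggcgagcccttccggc
Creld2: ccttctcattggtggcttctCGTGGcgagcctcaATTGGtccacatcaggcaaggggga
Hsp90b1: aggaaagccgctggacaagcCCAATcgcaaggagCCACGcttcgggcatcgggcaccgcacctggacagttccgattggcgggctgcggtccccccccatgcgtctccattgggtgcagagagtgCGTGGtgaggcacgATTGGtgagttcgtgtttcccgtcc
Herpud1: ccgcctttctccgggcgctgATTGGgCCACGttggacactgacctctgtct

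These stretches lie on GRCm38.p6 at chr2:34772005-34772063 for Hspa5, chr14:118937807-118937865 for Dnajc3, chr12:17266471-17266529 for Pdia6, chr15:88819500-88819558 for Creld2 and chr8:94386357-94386407 for Herpud1, all on the plus strand, and at chr10:86705513-86705676 on the minus strand for Hsp90b1. All are upstream of the annotated start. The element began at position -65 from the start in Hspa5, -98 in Pdia6, -105 in Dnajc3 and -126 in Creld2, where it is turned to the other strand. Hsp90b1 held 2 copies, at -212 and, turned, at -107. The Herpud1 form began at -52. Pdia4, Dnajb9 and Sdf2l1 held neither form in their windows, which says only that these letters are not there. The XBP1-type core TGACGTG was in the Hspa5 window at -157 (2.01% of all windows), and TGATG, any base, then AA, the ATF4-type element, was in the Herpud1 window at -112 (3.97% of all windows). A match is a string of letters and not a measured binding site.

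Signals below are quantile normalized intensities on a linear scale, with Samples 1, 2 and 3 always given in the order day 0, day 2 and day 139. All 12 probes were well above background on all 3 arrays. A signal is not compared between genes, since probes differ in how strongly they bind. The error beside a log2 ratio is the scanner software's own error for the probe on the 2 arrays. It covers the spot on the array and neither the mice nor the labelling. For the brightest probes it was 0.20 in every comparison, so it acts as a nearly fixed limit. It is not a spread measured between spots, and the error of a spot below means this limit. Each probe's position is given on mm9, from the array's own annotation. Because whole spleen was measured, fewer cells of a type and less RNA per cell cannot be told apart.

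**Figure D1:**
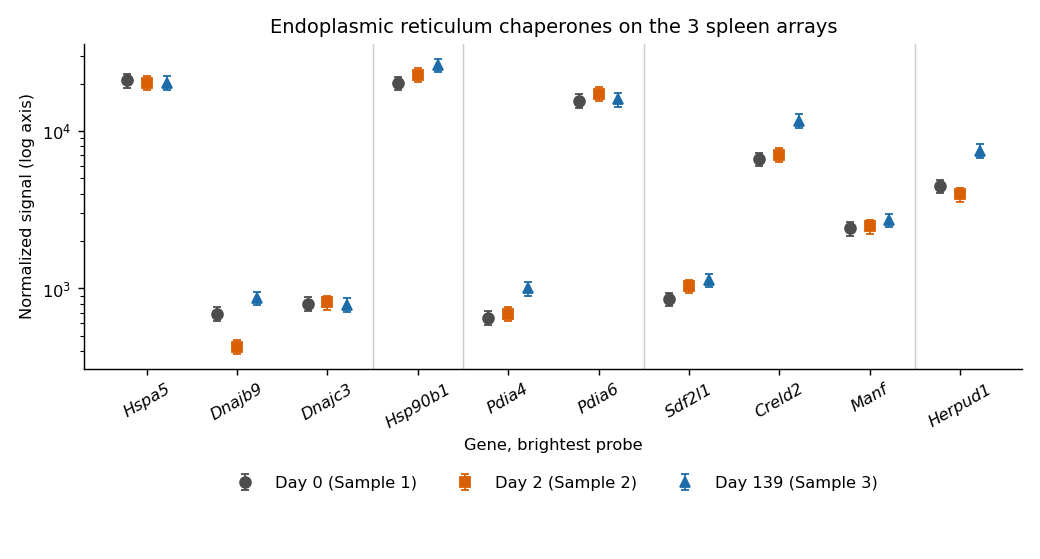
Normalized signal of the brightest probe of each of the 10 genes (log axis) on day 0 (circles), day 2 (squares) and day 139 (triangles), 1 array each, with the scanner software's error as bars and the genes grouped by role. Day 139 is the highest point for 7 genes, by the most for Creld2, Herpud1 and Pdia4, while the points of Hspa5 and Dnajc3 nearly coincide.

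Hspa5 encodes BiP, the HSP70 of the ER lumen, which holds nascent chains and keeps the stress sensors inactive. Its probe (chr2:34631913-34631972, plus strand) read 20973, 20276 and 20276. Days 2 and 139 took the same quantile value, and before normalization the 3 signals were 21406, 21813 and 18361, with scanner errors of 2141, 2181 and 1836. The log2 ratio of day 139 over day 0 was -0.05 ± 0.20. With quantile normalization BiP therefore did not differ between the days beyond the error of a spot. Scaling to the spike-in controls, described below, gave log2 ratios for day 139 of 0.39 over day 0 and 0.41 over day 2.

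Dnajc3 (P58IPK) and Dnajb9 (ERdj4) are J-domain proteins, which bring clients to BiP and start its ATPase cycle. The Dnajc3 probe (chr14:119378131-119378190, plus strand) read 800, 815 and 791, with log2 ratios between -0.04 and 0.03 in the 3 comparisons, and lay as close together as BiP. Over the 3 days the centred log2 signals of Hspa5 and Dnajc3 differed by a root mean square of 0.031, the smallest value among the 10 genes.

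Dnajb9 varied the most between days. Its brighter probe (chr12:45307313-45307372, minus strand) read 691, 426 and 867, lowest on day 2 and highest on day 139. The ratio was 0.617 for day 2 over day 0 (log2 ratio -0.70 ± 0.20), 2.04 for day 139 over day 2 (1.03 ± 0.20) and 1.26 for day 139 over day 0 (0.33 ± 0.20). The dimmer probe (chr12:45308272-45308331), which starts 959 bases away, read 49.9, 46.9 and 76.2. It gave a ratio of 1.53 for day 139 over day 0 and 1.62 over day 2. Both probes were highest on day 139, but they disagreed on day 2, where the dimmer probe gave a log2 ratio over day 0 of -0.09 ± 0.25. The low day 2 value of Dnajb9 therefore rests on 1 of its 2 probes.

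Hsp90b1 encodes GRP94, the HSP90 of the ER, which folds integrins and Toll-like receptors. The probe (chr10:86153770-86153829, minus strand) read 20190, 22844 and 26200, in rising order of the days. The log2 ratio was 0.38 ± 0.20 for day 139 over day 0, 0.20 ± 0.20 for day 139 over day 2, and 0.18 ± 0.20 for day 2 over day 0. Only the first of these passed the error of a spot.

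Pdia4 (ERp72) and Pdia6 (P5) are protein disulfide isomerases, which make and exchange disulfide bonds in the ER. Pdia4 (chr6:47746516-47746575, minus strand) read 649, 693 and 1002. Days 0 and 2 lay close together (log2 ratio 0.09 ± 0.20) and day 139 above both, by 1.54-fold over day 0 (0.63 ± 0.20) and 1.45-fold over day 2 (0.53 ± 0.20). The brighter Pdia6 probe (chr12:17291070-17291129, plus strand) read 15606, 17270 and 15907, highest on day 2. The dimmer one (chr12:17291323-17291382), 253 bases on, read 335, 295 and 283, highest on day 0. For day 139 over day 0 the 2 probes gave log2 ratios of 0.03 ± 0.20 and -0.24 ± 0.21, with opposite signs, so no direction can be given for Pdia6.

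**Figure D2:**
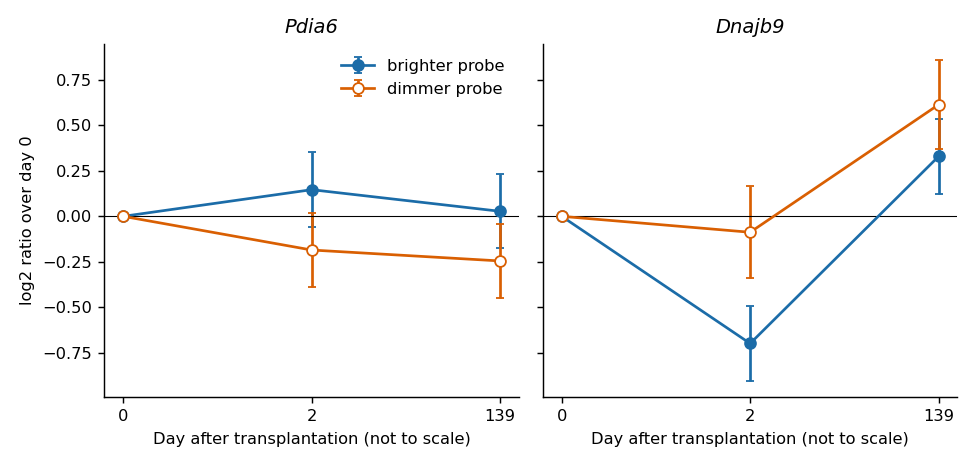
log2 ratio over day 0 (y axis) on days 0, 2 and 139 (x axis, not to scale) for the brighter (filled) and dimmer (open) probe of Pdia6 and Dnajb9, with the scanner software's error of each ratio as bars and 1 array per day. The 2 Dnajb9 probes are apart on day 2, at -0.70 and -0.09, and both above 0 on day 139, while the Pdia6 probes lie on opposite sides of 0.

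Sdf2l1, Creld2 and Manf encode small ER proteins. Sdf2l1 works with the BiP partner ERdj3, and CRELD2 and MANF are stress-induced ER proteins that are in part secreted. Sdf2l1 (chr16:17130426-17130485, minus strand) read 856, 1036 and 1131, with log2 ratios of 0.40 ± 0.20 for day 139 over day 0 and 0.28 ± 0.20 for day 2 over day 0. Its course was close to that of Hsp90b1 (root mean square 0.041). Manf (chr9:106791278-106791337, minus strand) read 2406, 2483 and 2721, and its largest log2 ratio, 0.18 ± 0.20 for day 139 over day 0, was within the error of a spot.

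Creld2 had the largest difference of the 10 genes between day 139 and day 0. The probe (chr15:88656997-88657056, plus strand) read 6621, 7069 and 11605. Days 0 and 2 were alike (log2 ratio 0.09 ± 0.20), and day 139 was 1.75-fold above day 0 (0.81 ± 0.20) and 1.64-fold above day 2 (0.72 ± 0.20). Its 10 spots had a coefficient of variation of 2.54%, 1.52% and 4.06% on the 3 arrays. These spots are copies of 1 probe on the same array, so their spread holds nothing of mice or labelling. The Z of day 139 over day 0 was 1.25.

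Herpud1 encodes a ubiquitin-like membrane protein of the machinery that sends misfolded proteins from the ER to the proteasome. Its probe (chr8:96919117-96919176, plus strand) read 4472, 3960 and 7500, again highest on day 139. The ratio was 1.68 for day 139 over day 0 (log2 ratio 0.75 ± 0.20), 1.89 for day 139 over day 2 (0.92 ± 0.20) and 0.886 for day 2 over day 0 (-0.18 ± 0.20).

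The first comparison set the spleen with a long-standing graft against the one taken just after transplantation. By their brightest probes, 8 of the 10 genes were higher on day 139 than on day 0 and 2 (Hspa5 and Dnajc3) were lower (7 higher with the median over a gene's probes, where Pdia6 turned), and 4 (Hspa5, Pdia6, Dnajc3 and Manf) lay within the error of a spot. By the ratio limit alone, at least 1.5, Pdia4, Creld2 and Herpud1 were up, 3 of 10, where 13.6% of all 22852 detected gene names were up. None was down by a ratio of at most 0.66, against 13.8% of all genes. The study's criteria add a Z-score of at least 2 in size, here the log2 ratio over the SD of the 1000 probes nearest in signal. By both criteria no member was called, against 3.13% of all genes up and 2.35% down, and the highest Z among the members was 1.25, for Creld2. The median log2 ratio of the members was 0.35, and that of all genes was -0.003. With a Z-score built on the median absolute deviation, scaled, instead of the SD, Creld2 and Herpud1 passed, where 6.52% of all genes were up.

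The second comparison set day 139 against day 2. Higher on day 139 were 7 genes and lower 2 (Pdia6 and Dnajc3), with Hspa5 equal, and 6 of the 10 lay within the error of a spot. By ratio alone Dnajb9, Creld2 and Herpud1 were up, 3 of 10 against 12.9% of all genes, and none was down against 13.6%. By both criteria no member was called, against 3.07% up and 1.79% down. The highest Z was 1.73, for Dnajb9. The members' median log2 ratio was 0.16 beside -0.03 for all genes. Dnajb9 and Herpud1 passed both criteria with the scaled median absolute deviation, where 5.80% of all genes were up.

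Between day 2 and day 0 the members differed little. Higher on day 2 were 7 genes and lower 3 (Hspa5, Dnajb9 and Herpud1), but 8 lay within the error of a spot, the exceptions being Dnajb9 and Sdf2l1. Only Dnajb9 passed a ratio limit, downward, 1 of 10 against 9.90% of all genes, and none passed upward, against 9.96%. No member met both criteria, against 2.13% of all genes up and 2.80% down. The median log2 ratio was 0.07, against 0.02 for all genes. With the scaled median absolute deviation Dnajb9 was called down, where 5.42% of all genes were down. Each pair of comparisons shares 1 array, so the 3 sets of ratios are not independent.

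**Figure D3:**
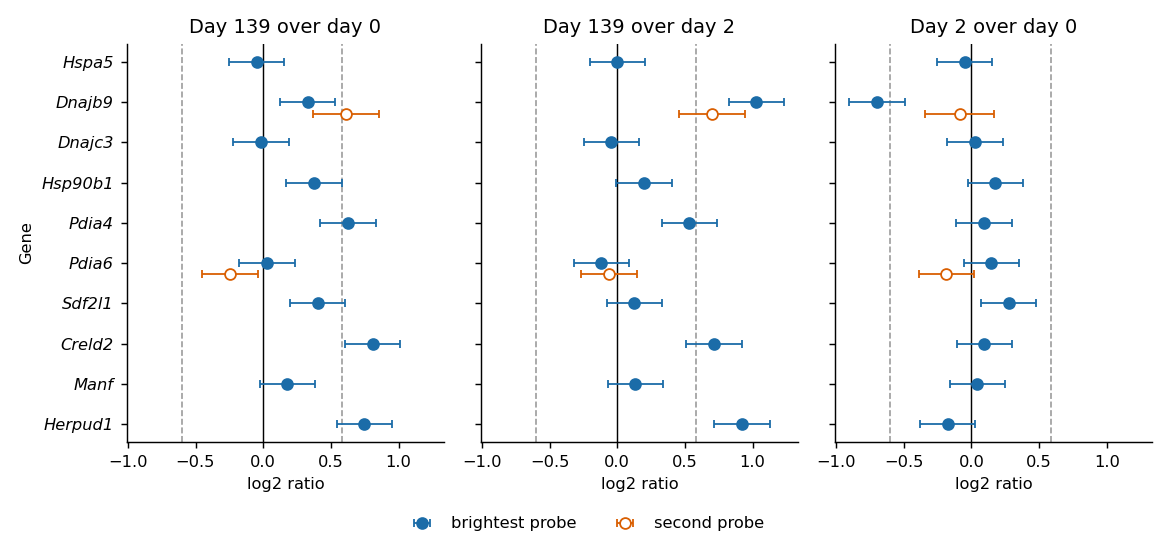
log2 ratio of each of the 10 genes (rows) in the 3 comparisons (panels), for the brightest probe (filled) and the second probe of Dnajb9 and Pdia6 (open), with the scanner software's error of the ratio as bars and dashed lines at ratios of 1.5 and 0.66. By their brightest probes Pdia4, Creld2 and Herpud1 pass the upper line in the first panel and Dnajb9, Creld2 and Herpud1 in the second, the second Dnajb9 probe passes it in both, and the brightest Dnajb9 probe passes the lower line in the third.

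Seen across all 3 days by their brightest probes, 7 of the 10 genes were highest on day 139 (Hsp90b1, Pdia4, Dnajb9, Sdf2l1, Creld2, Manf and Herpud1), Hspa5 was highest on day 0, and Pdia6 and Dnajc3 on day 2. For Hspa5, Pdia6, Dnajc3 and Manf these differences between days lay within the error of a spot. The dimmer Pdia6 probe was highest on day 0. The mean of the centred log2 signals of the 10 genes was -0.11, -0.12 and 0.23 on the 3 days, a range of 0.35. This range was under the 0.5 required for a search of genes with a like pattern, so none are named. The genes that carry the printed CCAAT and CCACG element gave log2 ratios of day 139 over day 0 from -0.05 (Hspa5) to 0.81 (Creld2), and the 3 genes with a window but neither form gave 0.33 (Dnajb9), 0.40 (Sdf2l1) and 0.63 (Pdia4). The farthest pair was Pdia6 and Dnajb9, with a root mean square difference of 0.48.

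These directions depend on how the arrays are put on one scale. Quantile normalization makes the distributions equal. When each array was instead scaled to its 8 spike-in controls, all its genes were scaled by the same factor. The median of all genes became 0.38 for day 139 over day 0 and 0.41 for day 139 over day 2. The members' medians became 0.77 and 0.61. All 10 members were then higher on day 139 in both comparisons, and Hspa5 and Dnajc3 turned from -0.05 and -0.02 to 0.39 and 0.39 over day 0. Relative to the median of all genes, the members' median was 0.38 with the spike-ins and 0.36 without for day 139 over day 0. Because the scaling applies the same factor to every gene of an array, this difference cannot depend on the spike-ins. Among all called genes, the share called up over day 0 went from 57.1% to 80.7%, and over day 2 from 63.2% to 87.4%. For day 2 over day 0 the median of all genes stayed near 0 at -0.02.

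**Figure D4:**
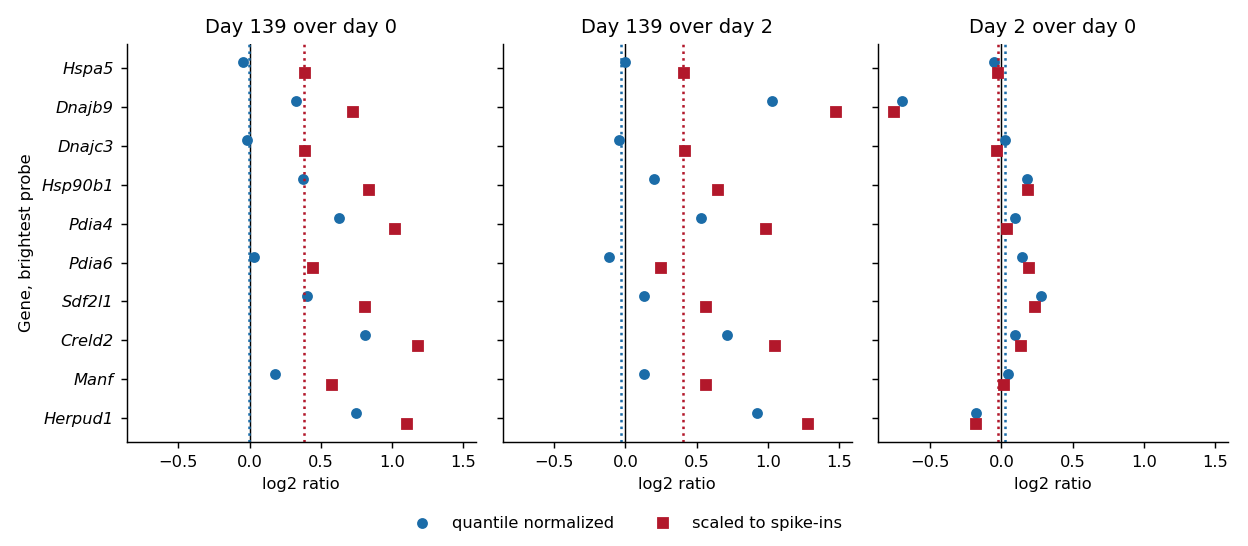
log2 ratio of each gene's brightest probe (rows) in the 3 comparisons (panels) after quantile normalization (circles) and after scaling to the spike-in controls (squares), with dotted lines at the median of all genes under each scaling. In both comparisons with day 139 the squares and their dotted line lie to the right of the circles by about the same distance, and in the third panel the 2 scalings nearly coincide.

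The rest of the pathway was read from 8 lists with 119 genes, of which 117 were detected. For day 139 over day 0, 68 were higher and 49 lower, with a median log2 ratio of 0.09. By both criteria 2 were called up and 1 down, against 3.13% and 2.35% of all genes. For day 139 over day 2, 65 were higher and 52 lower, with 1 called up and 4 down, against 3.07% and 1.79%. For day 2 over day 0, 63 were higher and 54 lower, with 3 up and 1 down, against 2.13% and 2.80%. The medians in these 2 comparisons were 0.06 and 0.01. The same shares of all genes stand beside the calls in each list below.

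The sensors and transcription factors of the unfolded protein response differed in direction between the comparisons. Of 11 such genes, 3 were higher and 8 lower on day 139 than on day 0, with a median log2 ratio of -0.19, while 7 were higher and 4 lower than on day 2, with a median of 0.32. On day 2 over day 0, 1 was higher and 10 were lower, with a median of -0.15. Xbp1 read 24083, 12675 and 20686, lowest on day 2, where it was the only gene of this list to meet both criteria (log2 ratio over day 0 -0.93, Z -2.02). Ern1, which encodes the sensor IRE1 that splices Xbp1, read 292, 229 and 289. Its partner sensor Eif2ak3 (PERK) had the list's highest log2 ratio over day 0, at 816, 881 and 1198. Atf4 read 36929, 34084 and 29475 and Ddit3, the stress-induced factor CHOP, 336, 286 and 270. The Xbp1 probe was not matched to the spliced or the unspliced form, and RNA does not measure a sensor's activity.

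Several targets of the PERK and ATF4 branch were lowest on day 139. Over day 2, 3 of 11 were called down on day 139 and 8 were lower, with a median log2 ratio of -0.24. Over day 0 the list was divided on day 139, with 5 higher, 6 lower, 1 called down and a median of -0.06. On day 2 over day 0, 8 were higher and 3 lower, with 1 called up and a median of 0.24. Trib3, a pseudokinase induced by ATF4 and CHOP, read 243, 496 and 125, called up on day 2 over day 0 (Z 2.04) and down on day 139 over day 2 (log2 ratio -1.99, Z -3.24). Asns, asparagine synthetase, read 8029, 9542 and 3497 (-1.45, Z -2.44 over day 2). Ddit4, an inhibitor of mTORC1 signalling, read 23089, 24845 and 9235 and was called down over both earlier days (-1.32 and -1.43). Slc7a11, the cystine transporter, read 39.9, 20.5 and 41.7 and Phgdh, of serine synthesis, 1895, 2439 and 2837.

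Among the 8 other partners of BiP none met both criteria in any comparison, nor the ratio limits alone. Hyou1, the large HSP70 relative that exchanges nucleotide on BiP, read 65.7, 66.8 and 82.2. Sil1, the other exchange factor, had the largest log2 ratio of day 139 over day 0, at 0.54, and Dnajc1 the lowest, at -0.26. Of 17 genes of oxidative folding, 12 were higher on day 139 than on day 0 and 16 were higher on day 2 than on day 0, while 7 were higher and 10 lower on day 139 than on day 2. Txndc5, a disulfide isomerase abundant in plasma cells, read 468, 692 and 1370 and was called up over day 0 (log2 ratio 1.55, Z 2.63). Fkbp14, a proline isomerase, was called up on day 2 (310, 547 and 282). P4hb, the archetypal disulfide isomerase, read 2794, 3221 and 2404 and Pdia3, which works on glycoproteins, 1671, 1901 and 1746, both highest on day 2. Fkbp11 was well above background only on day 139, at 29.2.

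The 14 genes of the calnexin cycle lay near 0, with medians of -0.01, -0.03 and 0.02 and none past a ratio limit. Calr, the lectin chaperone calreticulin, read 5561, 7409 and 6201. Of 18 detected genes of ER-associated degradation, the list nearest to Herpud1 in function, 13 were higher on day 139 than on day 0 and 14 than on day 2, with medians of 0.26 and 0.27. Derl3, a derlin of the retrotranslocation channel and one of the plasma cell markers here, read 682, 924 and 2538 and was the only one called, over day 0 (log2 ratio 1.90, Z 3.50) and over day 2 (1.46, Z 2.27). Sel1l, the adaptor of the ubiquitin ligase complex, read 331, 336 and 448.

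Of 19 genes of translocation and signal peptide processing, 12 were higher on day 139 than on day 0 and 15 than on day 2, with no call. Sec11c, a signal peptidase subunit, led with 1458, 1467 and 2371. The 19 genes of ER to Golgi transport had medians between -0.05 and 0.04. Kdelr3, a receptor that returns escaped ER residents bearing a retention signal, stood far from the rest at 27.1, 369 and 80.3 (log2 ratio of day 2 over day 0 3.77, Z 6.35). Tmed10, a cargo receptor, was lowest on day 2 (8621, 5410 and 9814).

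**Figure D5:**
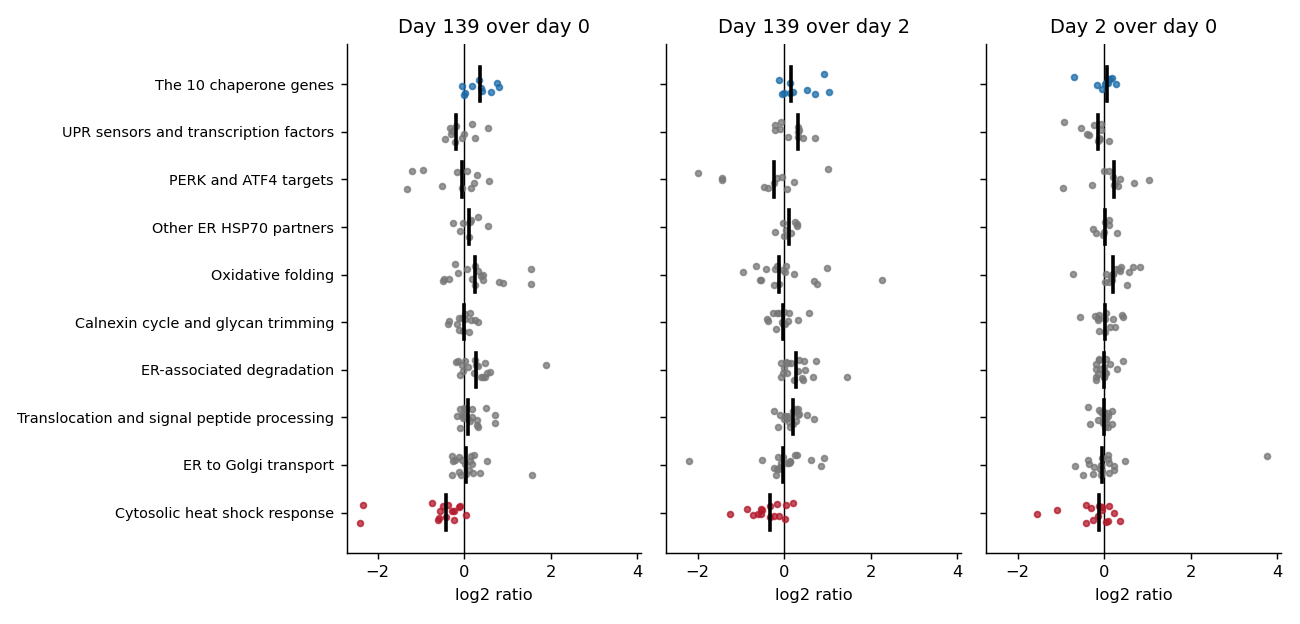
log2 ratios of single genes (points, brightest detected probe) and their median (vertical bar) for the 10 chaperones, 8 lists of the rest of the ER pathway and the cytosolic heat shock list, in the 3 comparisons (panels). The chaperone median lies to the right of 0 in the first panel, the heat shock median lies to the left of it in all 3, and the far point in the third panel is Kdelr3.

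The cytosolic heat shock genes, which answer misfolding outside the ER through HSF1, were mostly lower on the later days. Of 15 detected genes, 14 were lower on day 139 than on day 0 and 12 lower than on day 2, with medians of -0.42 and -0.33. Hspb1 (HSP27) read 16236, 5556 and 3055 and was called down on day 139 (log2 ratio -2.41, Z -3.69) and already on day 2 (-1.55, Z -3.09). Hspa1a, the inducible HSP70, read 115, 54.2 and 22.8 and was called down on day 139 (-2.34, Z -3.07). Under spike-in scaling the median of all genes shifts by the values given above, and directions of smaller size in these lists are relative to that median.

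Marker RNAs of several cell types also differed between the arrays. All 12 B cell and all 12 T cell markers and the 11 erythroid markers on the array were detected on every array, as a spleen holds. Of 11 plasma cell markers on the array, 10 were higher on day 139 than on day 0 and 11 than on day 2, with medians of 1.25 and 1.39. Sdc1, Irf4, Tnfrsf17, Igj and Derl3 were called up in both comparisons. Tnfrsf17, the plasma cell receptor BCMA, read 40.0, 57.6 and 275 and Igj, the joining chain of secreted IgM and IgA, 29396, 21253 and 69806. The summed signal of this list was 61052, 41403 and 105981 on the 3 days. Such a sum follows the brightest probes of a list, here Igj and Xbp1, at 29396 and 24083 on day 0. The list's median log2 ratio of day 2 over day 0 was -0.12. Fkbp11 was the only marker not well above background, on days 0 and 2. Xbp1, Derl3 and Fkbp11 also stand in the pathway lists. Mzb1, an ER partner of immunoglobulin folding in B and plasma cells, had no probe under that name.

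The B cell list was higher on day 139 in 12 of 12 genes in both comparisons (summed signal 56476, 56969 and 107632), and the T cell list in 11 of 12 (19010, 24827 and 36458). The islet list was highest on day 2, with 15 of 15 detected genes above day 0 (65475, 110730 and 35432), and 14 of 15 were lower on day 139 than on day 2. On day 139 over day 0, 5 were higher and 10 lower, with Gcg alone called, down. Of the 15, 4 were not well above background on day 139. Ins1 and Ins2 gave most of the sum, at 27132 and 30998 on day 0. Ero1lb also stands in the oxidative folding list. The exocrine pancreas list was highest on day 139 (1155, 975 and 1699), with 13 of 14 detected genes above day 0. Of the 14, 8 were not well above background on day 0 and 8 on day 2. Cela1 gave most of the sum on days 0 and 2, at 870 and 599, and the list's median log2 ratio of day 2 over day 0 was 0.28. Erythroid genes were lower on day 139 than on day 0 in 11 of 11 and than on day 2 in 9 of 11 (220505, 208080 and 160127). Of 14 acute inflammation genes, 11 were called down on day 139 over day 0 (median log2 ratio -2.93) and 10 on day 2 over day 0 (-1.83), with summed signals of 39981, 23886 and 7902. The 12 neutrophil genes were divided. On day 139 over day 0, 6 were higher and 6 lower (median log2 ratio -0.11), with 5 called down. On day 2 over day 0, 5 were higher and 7 lower (-0.30), with 4 called down. Their summed signals were 268584, 119029 and 124839, of which S100a9 gave 147009 on day 0. All 12 cell cycle genes were lower on day 139 than on day 0 and than on day 2 (97584, 106686 and 54868). Of the 10 stromal and endothelial genes, 6 were higher and 4 lower on day 2 than on day 0 (median log2 ratio 0.29), with Pecam1 lowest at -0.61. The 3 collagens of the list, Col1a1, Col1a2 and Col3a1, were called up on day 2 over day 0 and down on day 139 over day 2. Dcn was called up on day 139 over both earlier days. The 10 genes summed to 25840, 69005 and 34907. Macrophage genes were divided, with 6 of 13 higher on day 139 than on day 0 and 3 of 13 than on day 2 (148623, 151124 and 138359). The part of any of these lists in the day 139 values of Creld2, Herpud1, Pdia4 and the other chaperones was not tested.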

How the data were processed

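Total RNA of 3 spleen samples was labelled with Cy3 and hybridized to Agilent SurePrint G3 Mouse 8x60K arrays, 1 per day. The authors deposited the scanner output, linear intensity per spot with background already subtracted by Feature Extraction (10.7.1.1 per the file headers, 9.5.1.1 per the labels), and a table of processed intensity per probe. The latter matched the values computed here, within 0.0016 log2 for the members. Control and outlier-flagged spots were left out, spots averaged per probe, and 55681 probes quantile normalized over the 3 arrays, floored at 1 and taken to log2 (Python 3.11.15, numpy 2.4.6, pandas 2.3.3, matplotlib 3.10.9). No member spot was flagged. Detected means well above background on at least 1 array (32110 probes, 54.4%, 53.8% and 50.4% per array), and no gene spot was saturated. Their number, 3 arrays, limits the precision. Each gene took its brightest detected probe. Calls followed the study's criteria (ratio at least 1.5 and Z at least 2, or at most 0.66 and -2). limma 3.58.1 in R 4.3.3 gave the normexp alternative (offset 50).

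The code was tested on simulated data. The members and lists were chosen with earlier results of these data known. Named were all members with every probe, fixed anchor genes, called genes of short lists, and genes with a list's largest or smallest log2 ratio. Labels and paper differ on the RNA and labelling kits.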

Additional observations from a re-analysis of the deposited data

How the results depend on the processing

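The members' counts, medians and 30 log2 ratios were computed again with normexp background correction, scaling to the 75th percentile, spike-in scaling, the deposited table, values raised to each array's lowest detected signal, outlier-flagged spots kept, detection on all 3 arrays, and the median over a gene's probes, and the counts also with 2 other spreads for the Z-score. Spike-in scaling moved 20 of the 30 ratios past the spot error and turned the sign of 5. Under it the members' median became 0.77 for day 139 over day 0 and 0.61 for day 139 over day 2, and 2 members were called up over day 2, Dnajb9 and Herpud1, with 6.09% of all genes. The scaled median absolute deviation called 2 members up over day 0 (6.52% of all genes), 2 up over day 2 (5.80%) and, for day 2 over day 0, 1 down (5.42%). Spike-in scaling shifts every gene of an array by the same factor, as given above. Why the spike-in controls differed between the arrays relative to the genes was not tested. The scaled median absolute deviation raised the share of all genes called up over day 0 from 3.13% to 6.52%. The median over probes moved 1 ratio, Dnajb9 on day 2 over day 0, from -0.70 to -0.39, and turned 2 signs. The other alternatives moved no ratio past the spot error, by at most 0.17 (normexp) and 0.12 (75th percentile), and each of these 2 turned 1 sign. No paired analysis was possible because each day has 1 array. Signal over background limited none of the members, and the lack of replicates limits all of them.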
